A study of Mus musculus with 9 samples.

Results

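The 9 genes of the Nodal branch of transforming growth factor beta signalling are described here across every library of the series: Nodal, Tdgf1, Acvr1b, Acvr2b, Smad2, Smad3, Foxh1, Lefty1 and Lefty2. They were found by name, as the entries of the deposited gene table whose symbol equals one of these. The list itself was drawn up with earlier results of these data known. All 9 were found, of 33495 genes in the table and 25920 with at least 1 count in any library. All 9 also passed the filter on low counts, which asked for 1 CPM (reads scaled to library size) or more in 3 or more of the libraries and left 13996 genes.

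The cells were RF8, a line of mouse embryonic stem (ES) cells, carrying a transfected construct for Nanog with the L122A change (L122A), for wild-type Nanog (WT) or for green fluorescent protein (EGFP). Nanog is a homeodomain transcription factor of the pluripotent state. Each transfectant was sequenced from 3 cultures, giving 9 libraries with no replicate of any combination: a culture with 5 µM retinoic acid and no leukaemia inhibitory factor (RA), a culture lacking the factor and retinoic acid alike (no-LIF), and the routine medium holding 1000 units of the factor per ml (LIF). Per the labels, the routine medium contained fetal calf serum and puromycin. The RA culture differs from the LIF culture in both agents. In RA against no-LIF, of these agents, only retinoic acid differs per the labels. How long each culture lasted, the promoter of the construct, the species of the transfected Nanog and whether each transfectant was 1 clone are not in the labels. The LIF columns of the count table were assigned by elimination, because their culture name is in no label.

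Nodal is a secreted ligand of the transforming growth factor beta family. It binds activin receptors together with the co-receptor Cripto, the product of Tdgf1, and the receptors phosphorylate Smad2 and Smad3, which enter the nucleus with Smad4 and bind DNA beside factors such as Foxh1. Nodal itself and the secreted inhibitors Lefty1 and Lefty2 are targets of the pathway in the mouse embryo, which gives it a positive and a negative loop, and mouse ES cells are known to transcribe these genes in culture.

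The results turn on the ligand and its co-receptor, whose promoters RefSeq lists among those of 5 members (Nodal, Tdgf1, Acvr1b, Acvr2b and Smad3). Each stretch below runs from 250 bases before the annotated start to 50 after it, 5′ to 3′ on the gene's strand, in build GRCm38.p6 and not in the mm9 build of the count table. Capitals mark matches on either strand to 3 of 6 motifs searched. The Tdgf1 stretch is chr9:110946109-110946408 on the minus strand and the Nodal stretch is chr10:61417722-61418021 on the plus strand.
Tdgf1: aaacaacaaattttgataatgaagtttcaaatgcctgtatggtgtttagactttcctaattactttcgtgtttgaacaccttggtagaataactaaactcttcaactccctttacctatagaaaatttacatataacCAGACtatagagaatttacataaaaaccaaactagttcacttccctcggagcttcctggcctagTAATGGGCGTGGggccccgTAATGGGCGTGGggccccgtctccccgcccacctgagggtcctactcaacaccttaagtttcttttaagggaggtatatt
Nodal: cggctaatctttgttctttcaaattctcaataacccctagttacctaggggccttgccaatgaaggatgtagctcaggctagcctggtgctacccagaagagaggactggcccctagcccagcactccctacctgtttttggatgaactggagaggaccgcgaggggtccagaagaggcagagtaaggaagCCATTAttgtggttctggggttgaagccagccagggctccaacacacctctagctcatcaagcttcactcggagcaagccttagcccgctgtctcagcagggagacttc

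One motif searched was CAGAC, the SMAD box to which Smad3 and Smad4 bind. Another was TAATGG, a core bound by the Nanog homeodomain. The sequence GGGCGTGG is bound by Krüppel-like factors, AATNCACA by Foxh1 and ATGCAAAT, the octamer, by Oct4. The last was AGGTCA, a single site of the kind that retinoic acid receptors bind in pairs. They were picked after the sequences had been read. Positions are those of a match's first base, counted back from the annotated start. The Tdgf1 stretch held the Nanog core at -49 and again at -30, each copy overlapping a Krüppel-like factor motif, at -45 and -26. These copies lie in a sequence repeated in tandem, so they are not independent matches. The Tdgf1 stretch also held the SMAD box at -113. The Nodal stretch held the Nanog core 1 time, on the opposite strand, at -59. Of 32851 promoter stretches of this length, 7.73% held the Nanog core, 5.33% the Krüppel-like factor motif and 49.6% the SMAD box. The Foxh1, retinoic acid receptor and octamer motifs were in neither stretch and in 3.60%, 16.3% and 1.74% of all. The Smad3 stretch, searched in the same way and not shown, held none of the motifs. These are matches of letters, and binding was not measured.

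Total gene counts lay between 24166395 (L122A LIF) and 28714988 (EGFP RA). Genes of ribosomal RNA took 4.56%, 4.32% and 4.75% of the counts in the RA libraries of L122A, WT and EGFP. In the other libraries they took between 7.90% (EGFP LIF) and 11.9% (L122A LIF). Scaling by the trimmed mean of M values (TMM) gave factors between 0.810 (L122A no-LIF) and 1.255 (L122A RA), and CPM below are on this scale. The RA libraries of L122A, WT and EGFP had the highest factors (1.255, 1.224 and 1.120), followed by EGFP LIF (1.042). The deposited FPKM are counts scaled to gene length and to library totals alone, without these factors. Nanog stood at 259, 130 and 240 CPM in L122A, at 195, 168 and 223 CPM in WT, and at 0.873, 291 and 385 CPM in EGFP, each in the order RA, no-LIF, LIF. It was therefore above EGFP in the transfectants carrying Nanog in the RA culture and below it in the other cultures, so in those the level of Nanog does not set the transfectants apart as labelled. The summed CPM of 6 ES cell markers was 553, 3247 and 2441 in L122A, 106, 2326 and 3224 in WT, and 13.0, 596 and 2008 in EGFP, in the same order, with none at 0. The ES cell markers were thus present under the ES cell label, and the 3 RA libraries held their lowest sums. Of 8 extraembryonic endoderm markers, the summed CPM was 65.8, 173 and 109 in the RA libraries of L122A, WT and EGFP and at most 22.8 in the others. The sum of 6 fibroblast markers was 86.9, 435 and 3987 CPM in the RA libraries of L122A, WT and EGFP, 8.06, 11.7 and 269 in no-LIF, and 16.7, 8.03 and 147 in LIF. In bulk RNA, fewer cells of a type and less RNA per cell cannot be told apart.

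The first question is how the pathway differed in retinoic acid across the transfectants. The ligand, its co-receptor and both Lefty genes were lower in RA than in either other culture, Smad3 was higher, and neither receptor gene passed the test. The test of culture was edgeR's quasi-likelihood F test, with culture and transfectant as additive terms and Benjamini-Hochberg adjustment over the 13996 genes. With 1 library per combination, its spread is the departure from additivity, so a p-value asks whether a difference repeats over the 3 transfectants, not over replicate cultures. Of the 9 members, 5 passed in RA against LIF (adjusted p below 0.05), 4 lower and 1 higher, against 48.2% of all genes (24.5% higher, 23.8% lower). In RA against no-LIF 7 passed, 5 lower and 2 higher, against 44.5% (22.6% higher, 21.9% lower). With so many genes called, the count alone does not set the members apart. Their median log2 fold change was -1.81 in RA against LIF and -2.58 in RA against no-LIF, beside 0.01 and 0.02 over all genes. TMM scaling holds the medians of all genes near 0, and with library totals alone they were 0.39 and 0.43. The members were also listed with earlier results of these data known, so their medians are a description and not a test. Both comparisons use the same RA libraries. Beside them, 5 of 6 ES cell markers were lower and all 6 tested endoderm and 4 of 5 tested fibroblast markers were higher in RA against LIF. The part of these cell markers in the members' results was not tested.

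Nodal, the ligand (ENSMUSG00000037171, mm9 chromosome 10, 60880720 to 60888086), was read at 16.8, 3.29 and 0.841 CPM in the RA libraries of L122A, WT and EGFP, from 598, 105 and 27 reads. In the no-LIF libraries it stood at 34.5, 33.5 and 61.0 CPM, and in the LIF libraries at 32.0, 28.0 and 28.5 CPM, in the same order. All 3 RA libraries lay below all 6 others, and among the RA libraries L122A was the highest and EGFP the lowest. The log2 fold change was -3.13 (SE 0.87) in RA against no-LIF and -2.52 (SE 0.83) in RA against LIF, with adjusted p = 0.0213 and 0.0374 in edgeR's quasi-likelihood test. The difference from no-LIF fell short of the threshold without WT RA (adjusted p = 0.0978) or WT no-LIF (0.0542), with no filter or with only the 2 cultures fitted, and over its alternatives the adjusted p ranged between 0.00241 and 0.144. Against LIF the call was lost without WT RA (-2.26), WT no-LIF (-2.52), WT LIF (-2.27) or EGFP LIF (-2.38), and with library totals alone (-2.07), no filter (-2.46) or no transfectant term (-2.08), over a range of adjusted p between 0.00413 and 0.202. Without L122A RA the log2 fold change in RA against LIF was -3.94, and without EGFP RA it was -1.68. Within a transfectant, Nodal was 1.91-fold lower in L122A RA than in L122A LIF (95% Poisson interval 1.71 to 2.13), 8.51-fold lower in WT (6.90 to 10.6) and 33.9-fold lower in EGFP (23.1 to 51.8). Such intervals, here and below, cover counting error only.

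Tdgf1, the co-receptor (ENSMUSG00000032494, mm9 chromosome 9, minus strand, 110818342 to 110848571), had the largest difference of the 9 in both RA comparisons. It stood at 9.72, 8.74 and 2.74 CPM in the RA libraries of L122A, WT and EGFP, against 1060, 1494 and 1271 CPM in no-LIF and 1260, 2046 and 1062 CPM in LIF. The groups did not overlap, and the lowest library outside RA held 109 times the CPM of the highest RA library. Its log2 fold change was -7.62 (SE 0.45) in RA against no-LIF and -7.74 (SE 0.45) in RA against LIF (adjusted p = 0.000108 and 9.66e-05, edgeR). The call stood under every alternative, leave-one-out included, with adjusted p no higher than 0.0017. The single-library ratios of RA to LIF were 130-fold lower in L122A (117 to 145), 234-fold in WT (208 to 264) and 387-fold in EGFP (314 to 483). Of the 50-base words in its transcript, 12.5% also occur in the pseudogene Tdgf1-ps1, so a share of its reads could have been placed on either.

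**Figure D1:**
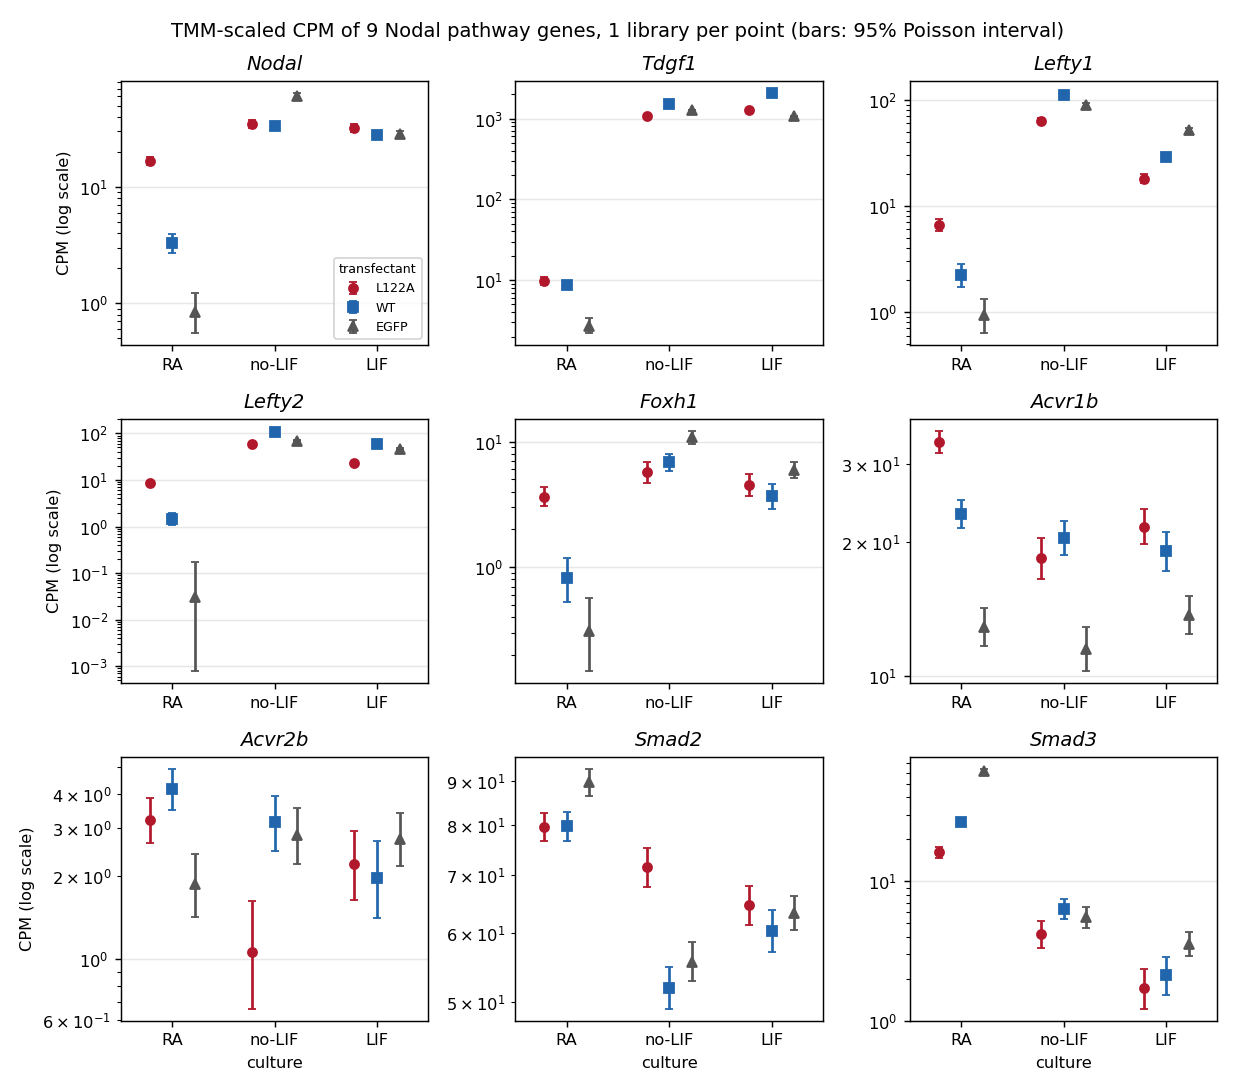
TMM-scaled CPM (log axis) of each of the 9 genes in the RA, no-LIF and LIF cultures, 1 library per point with its 95% Poisson interval, for L122A, WT and EGFP. Nodal, Tdgf1, Lefty1 and Lefty2 lie lowest in the 3 RA libraries with EGFP RA at the bottom, while Smad3 lies highest there with EGFP RA at 61.5 CPM.

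Neither receptor gene passed the test in an RA comparison. Acvr1b, the type I receptor also called ALK4 (ENSMUSG00000000532, mm9 chromosome 15, 101004535 to 101044109), was read at 33.7, 23.2 and 12.9 CPM in the RA libraries of L122A, WT and EGFP. It stood at 18.4, 20.5 and 11.5 CPM in no-LIF and at 21.7, 19.1 and 13.7 CPM in LIF. The ranges of the cultures overlapped, and within every culture EGFP was the lowest. The log2 fold change was 0.41 (SE 0.22, adjusted p = 0.163, edgeR) in RA against no-LIF and 0.29 (SE 0.22, adjusted p = 0.312) in RA against LIF. With library totals alone the first of these passed, at 0.82 and adjusted p = 0.0496.

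Acvr2b, a type II receptor (ENSMUSG00000061393, mm9 chromosome 9, 119311562 to 119342619), had the fewest reads of the 9 over all libraries together, 650, and stood between 1.07 CPM (L122A no-LIF) and 4.17 CPM (WT RA). Its RA libraries held 3.20, 4.17 and 1.87 CPM in L122A, WT and EGFP and overlapped the others. Its log2 fold change was 0.44 (SE 0.50, adjusted p = 0.498, edgeR) in RA against no-LIF and 0.38 (SE 0.50, adjusted p = 0.548) in RA against LIF.

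Of the transducers, Smad3 (ENSMUSG00000032402, mm9 chromosome 9, minus strand, 63494574 to 63605801), the receptor-activated Smad that binds DNA directly, moved opposite to the ligand. It stood at 16.1, 26.5 and 61.5 CPM in the RA libraries of L122A, WT and EGFP, against 4.16, 6.34 and 5.50 CPM in no-LIF and 1.72, 2.12 and 3.55 CPM in LIF. Every RA library exceeded all the others. On the CPM scale every no-LIF library also exceeded every LIF library, but L122A no-LIF and EGFP LIF did not differ beyond counting error (ratio 1.17, 0.867 to 1.58), and in FPKM their order turned (0.61 and 0.67). The log2 fold change was 2.50 (SE 0.33) in RA against no-LIF and 3.70 (SE 0.35) in RA against LIF (adjusted p = 0.00107 and 0.000325, edgeR), and both calls stood under every alternative. In RA against LIF, Smad3 was 9.35-fold higher in L122A (6.73 to 13.4), 12.5-fold in WT (9.21 to 17.4) and 17.3-fold in EGFP (14.2 to 21.2).

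Smad2, its close relative (ENSMUSG00000024563, mm9 chromosome 18), varied least, between 51.9 CPM (WT no-LIF) and 89.7 CPM (EGFP RA). Its RA libraries held 79.7, 79.8 and 89.7 CPM in L122A, WT and EGFP, above the 71.5, 51.9 and 55.6 CPM of no-LIF and the 64.6, 60.4 and 63.3 CPM of LIF. The RA libraries did not overlap the others, but the distance was small. The log2 fold change was 0.49 (SE 0.17, adjusted p = 0.0479, edgeR) in RA against no-LIF and 0.41 (SE 0.17, adjusted p = 0.0812) in RA against LIF. The first call was lost without any 1 of the libraries other than L122A no-LIF (adjusted p between 0.0559 and 0.179), and with RLE factors, no filter or only the 2 cultures fitted. The second was gained with library totals alone (0.78, adjusted p = 0.00863) and with limma on log2(FPKM + 1) (0.76, adjusted p = 0.00625), over alternatives in which its adjusted p lay between 0.00625 and 0.254.

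Per length, the 2 Smads drew closer in RA. In deposited FPKM, the ratio of Smad2 to Smad3 was 13.1, 7.91 and 3.84 in the RA libraries of L122A, WT and EGFP, against 45.1, 21.6 and 26.5 in no-LIF and 100.4, 75.8 and 46.7 in LIF. The Smad2 level in FPKM stayed above that of Smad3 in all 9 libraries.

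Foxh1, the forkhead factor that brings Smad2 and Smad3 to Nodal targets (ENSMUSG00000033837, mm9 chromosome 15, minus strand, 76498714 to 76500378), was read at 3.65, 0.815 and 0.312 CPM in the RA libraries of L122A, WT and EGFP, from 130, 26 and 10 reads. It stood at 5.68, 6.83 and 10.9 CPM in no-LIF and at 4.52, 3.70 and 5.93 CPM in LIF. On this scale all RA libraries lay below the others, with L122A RA and WT LIF apart by less than counting error. In FPKM the order turned, L122A RA (3.50) lying above L122A LIF (3.17) and WT LIF (2.32). Foxh1 was lower in RA against no-LIF (log2 fold change -2.58, SE 0.79, adjusted p = 0.0285, edgeR) and did not pass in RA against LIF (-1.81, SE 0.77, adjusted p = 0.0812). The first call was lost without WT RA (-2.34), WT no-LIF (-2.43), WT LIF (-2.59) or EGFP no-LIF (-2.17), and with library totals alone (-2.15), no filter (-2.54) or only the 2 cultures fitted (-2.85), and the adjusted p ranged between 0.000417 and 0.125 over its alternatives. In RA against LIF, Foxh1 passed with DESeq2 (-1.85, adjusted p = 0.0147) and without L122A RA (-3.15, adjusted p = 0.00552), of a range between 0.00552 and 0.248.

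The Lefty genes, secreted antagonists of Nodal, lie side by side on chromosome 1, Lefty1 at 182865153 to 182868531 and Lefty2 at 182823239 to 182829234 (mm9, ENSMUSG00000038793 and ENSMUSG00000066652). Lefty1 was read at 6.57, 2.22 and 0.935 CPM in the RA libraries of L122A, WT and EGFP, against 63.2, 111 and 88.4 CPM in no-LIF and 18.0, 28.6 and 51.8 CPM in LIF. RA was lowest throughout. On the CPM scale every no-LIF library also lay above every LIF library, but in FPKM L122A no-LIF (29.1) lay below EGFP LIF (30.6). Lefty1 was lower in RA against no-LIF (log2 fold change -4.81, SE 0.79, adjusted p = 0.00257, edgeR) and in RA against LIF (-3.39, SE 0.76, adjusted p = 0.00829). Both calls stood when any library was left out. The log2 fold change in RA against LIF was -4.63 without L122A RA and -2.57 without EGFP RA, and the call was lost with no filter on low counts (adjusted p = 0.0753, the highest over its alternatives, of which the lowest was 0.000183).

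Lefty2 stood at 8.54 CPM in L122A RA, 1.44 CPM in WT RA and 0.031 CPM in EGFP RA, the last from 1 read. The no-LIF libraries of L122A, WT and EGFP held 58.4, 109 and 70.2 CPM and the LIF libraries 22.7, 58.4 and 45.6 CPM. The RA libraries lay below all others, while no-LIF and LIF overlapped. Its log2 fold change was -5.01 (SE 1.24) in RA against no-LIF and -4.17 (SE 1.24) in RA against LIF (adjusted p = 0.0137 and 0.0255, edgeR). The first call was lost without WT RA (-4.29, adjusted p = 0.0712) and with no filter (-4.96), over a range of adjusted p between 0.000656 and 0.127. The second was lost without WT RA (-3.43), WT LIF (-3.95) or EGFP LIF (-3.62), and with no filter (-4.11) or only the 2 cultures fitted (-4.83), with adjusted p between 0.00241 and 0.182 over its alternatives. In RA against LIF, Lefty2 was 2.66-fold lower in L122A (2.30 to 3.08), 40.5-fold lower in WT (30.2 to 55.6) and, on the single read, 1463-fold lower in EGFP (262 to 57833). The genes share sequence: 17.9% of the 50-base words of the Lefty1 transcript occur in Lefty2 and 11.6% of those of Lefty2 in Lefty1, so some reads could belong to either.

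**Figure D2:**
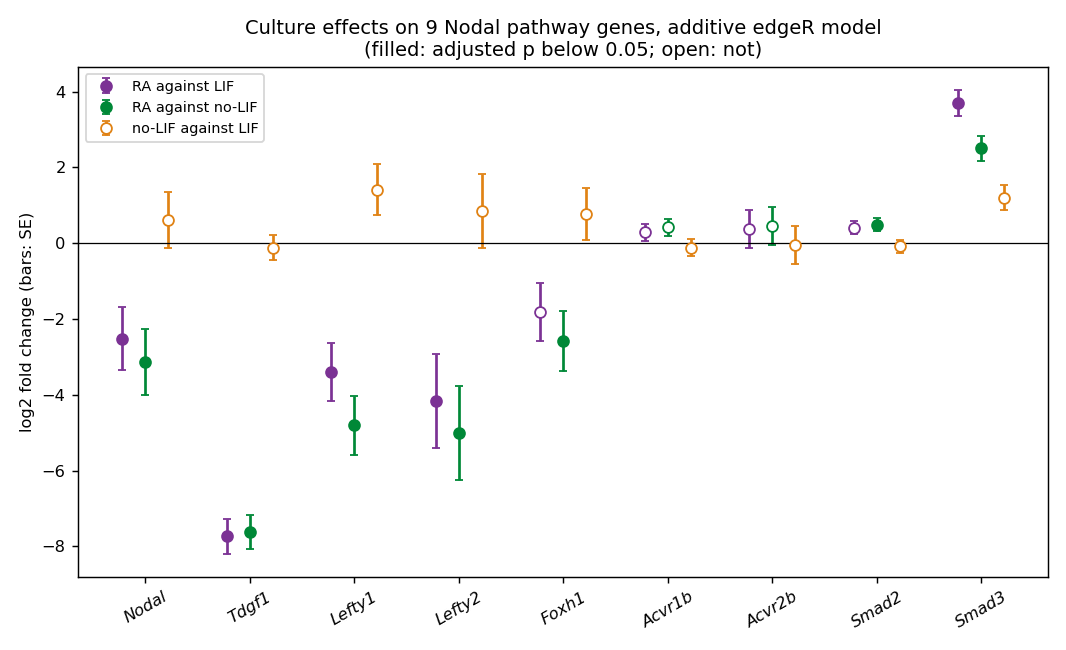
Log2 fold change with SE of each of the 9 genes in RA against LIF, RA against no-LIF and no-LIF against LIF, from the additive edgeR model, filled where the adjusted p is below 0.05. Tdgf1 lies at -7.74 and -7.62 in the RA comparisons, Smad3 at 3.70 and 2.50 and the receptor genes near 0, and no point of no-LIF against LIF is filled.

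LIF withdrawal alone gave smaller differences. In no-LIF against LIF, 0 of the 9 members passed edgeR's quasi-likelihood test, against 0.0714% of all genes. In the same test 1222 genes stood at an unadjusted p below 0.05. DESeq2 also called 0 of the 9, beside 278 of 13996 genes. The member with the largest log2 fold change was Lefty1, at 1.41 (SE 0.66, adjusted p = 0.62), followed by Smad3 at 1.20 (SE 0.33, adjusted p = 0.341). In edgeR's fit to the no-LIF and LIF libraries alone Lefty1 passed (1.52, adjusted p = 0.0347, of a range between 0.0347 and 0.978 over its alternatives). That fit called 90 of all genes, against 10 in the main fit. Without EGFP LIF the log2 fold change of Lefty1 was 2.25. As single libraries, Lefty1 was 3.50-fold higher in L122A no-LIF than in L122A LIF (3.13 to 3.93), 3.89-fold in WT (3.56 to 4.26) and 1.71-fold in EGFP (1.60 to 1.82). Lefty2 was 2.57-fold (2.31 to 2.86), 1.88-fold (1.75 to 2.01) and 1.54-fold (1.44 to 1.65) higher in the same pairs. Nodal showed another order of transfectants: 1.08-fold in L122A (0.968 to 1.20), 1.20-fold in WT (1.07 to 1.33) and 2.14-fold in EGFP (1.96 to 2.32).

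A ratio of single libraries was counted when it passed 2-fold and the higher of the pair held 5 CPM or more. By this measure 2 of 9 members were higher in no-LIF in L122A (Lefty1 and Lefty2), 2 in WT (Lefty1 and Smad3) and 1 in EGFP (Nodal), and none was lower. Of all genes, 2.06%, 4.04% and 5.31% were higher by it in L122A, WT and EGFP, and 4.29%, 7.34% and 9.89% passed it in either direction.

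The second question is how the transfected Nanog forms set the pathway apart from EGFP. Averaged over cultures, no member passed: 0 of 9 in L122A against EGFP, where 2.88% of all genes did, 0 of 9 in WT against EGFP (0.322%) and 0 of 9 in L122A against WT (0.0%). At an unadjusted p below 0.05 stood 2585, 1670 and 614 genes in these comparisons. The members with the smallest p were Acvr1b and Smad3. In L122A against EGFP the log2 fold change of Acvr1b was 0.92 (SE 0.23, adjusted p = 0.0716, edgeR) and that of Smad3 was -1.19 (SE 0.33, adjusted p = 0.0958). DESeq2 called both, at 0.89 and -1.22 (adjusted p = 0.0118 and 0.0130), and called 0 of 9 in WT against EGFP and in L122A against WT. Of 13996 genes, DESeq2 called 1438 in L122A against EGFP, 614 in WT against EGFP and 51 in L122A against WT. Over all alternatives the adjusted p lay between 0.0118 and 0.81 for Acvr1b and between 0.013 and 0.999 for Smad3. In WT against EGFP the log2 fold changes were 0.71 (SE 0.22, adjusted p = 0.249) for Acvr1b and -0.63 (SE 0.32, adjusted p = 0.496) for Smad3. Both comparisons use the same EGFP libraries.

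Acvr1b was above EGFP in every culture: 2.61-fold (2.34 to 2.93), 1.60-fold (1.37 to 1.87) and 1.58-fold (1.38 to 1.81) in L122A in RA, no-LIF and LIF, and 1.80-fold (1.59 to 2.03), 1.78-fold (1.54 to 2.06) and 1.39-fold (1.21 to 1.60) in WT. None of these intervals held 1. Library totals alone gave the same direction in these 6 pairs, with the smallest log2 ratio in WT LIF (0.13).

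Within the RA culture the transfectants parted most. Nodal was 20.0-fold higher in L122A RA than in EGFP RA (95% Poisson interval 13.6 to 30.6) and 3.91-fold higher in WT RA (2.54 to 6.21). Lefty1 was 7.03-fold (4.80 to 10.7) and 2.38-fold (1.53 to 3.78) higher in the same pairs. Lefty2, with 304 reads in L122A RA and 46 in WT RA against 1 in EGFP RA, was 274-fold (48.8 to 10859) and 46.2-fold (7.90 to 1866) higher. For each of these 3 genes the order was L122A above WT above EGFP. Foxh1 had the same order, 11.7-fold (6.17 to 25.0) and 2.61-fold (1.22 to 6.07) above EGFP, at under 5 CPM throughout.

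Tdgf1 was likewise above EGFP, 3.54-fold in L122A RA (2.80 to 4.53) and 3.19-fold in WT RA (2.50 to 4.10), but the L122A and WT libraries did not differ beyond counting error (ratio 1.11, 0.947 to 1.31). Smad3 ran the other way, at 0.261 of EGFP RA in L122A RA (0.238 to 0.287) and 0.432 in WT RA (0.398 to 0.468). Between the Nanog forms, L122A RA exceeded WT RA 5.11-fold for Nodal (4.14 to 6.35), 2.96-fold for Lefty1 (2.26 to 3.91), 5.93-fold for Lefty2 (4.33 to 8.27) and 4.48-fold for Foxh1 (2.93 to 7.12). Even so, the highest RA library stayed below all LIF and no-LIF libraries for each of Nodal, Tdgf1, Lefty1 and Lefty2, in CPM and in FPKM alike. For Foxh1 this held in CPM, within counting error, and not in FPKM.

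By the same 2-fold measure, 5 of 9 members were higher in L122A RA against EGFP RA (Nodal, Tdgf1, Lefty1, Lefty2, Acvr1b) and 1 lower (Smad3), against 14.3% of all genes (5.99% higher, 8.35% lower). In WT RA against EGFP RA 1 was higher (Tdgf1) and 1 lower (Smad3), against 8.21% (3.22% higher, 4.99% lower), since Nodal, Lefty1 and Lefty2 stayed under 5 CPM there. In L122A RA against WT RA 3 were higher (Nodal, Lefty1, Lefty2) and 0 lower, against 5.27% (2.49% higher, 2.79% lower). With 1 library on each side these ratios have no replicate check and carry no test. The ES cell marker sum had the order of these genes in the RA libraries (553, 106 and 13.0 CPM in L122A, WT and EGFP) and the fibroblast sum the opposite one (86.9, 435 and 3987 CPM). Their part in these ratios was not tested.

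**Figure D3:**
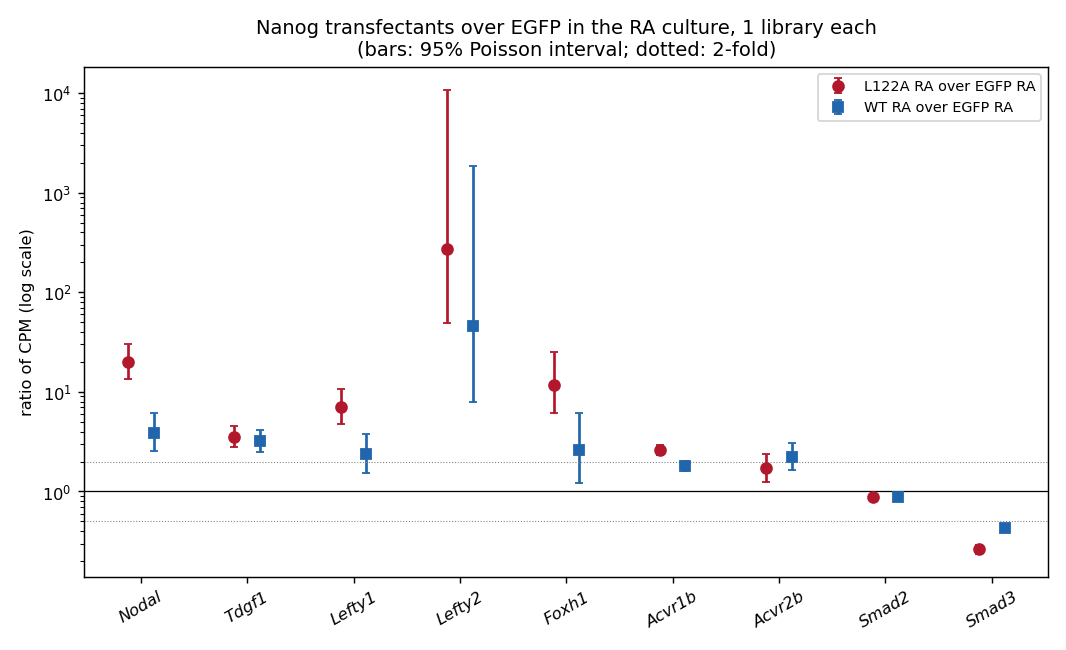
Ratio of CPM (log axis) in the RA culture of L122A over EGFP and of WT over EGFP for each of the 9 genes, 1 library each, with 95% Poisson intervals and dotted lines at 2-fold either way. The L122A point lies above the WT point for Nodal (20.0 and 3.91), Lefty1, Lefty2, Foxh1 and Acvr1b, beside it for Tdgf1 and Smad2, and below it for Acvr2b and Smad3.

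Outside RA the picture was different. In the no-LIF culture no member passed the 2-fold measure in any pair of transfectants, against 14.8% of all genes in L122A against EGFP, 11.7% in WT against EGFP and 5.78% in L122A against WT. Acvr2b was more than 2-fold lower in L122A than in EGFP and WT in this culture, but stayed under 5 CPM. Nodal was lower than in EGFP there, at 0.566 (0.517 to 0.620) in L122A and 0.550 (0.505 to 0.598) in WT, as was Foxh1, at 0.523 (0.417 to 0.653) and 0.629 (0.516 to 0.764). EGFP no-LIF was the library with the most Nodal and the most Foxh1 of all 9. It also stood apart in a list of 5 pathway target genes (Eomes, Mixl1, Gsc, T and Fgf8), whose summed level was 161 CPM there against 2.87 to 11.8 CPM in the other 8 libraries. With library totals alone, further ratios in no-LIF crossed 2-fold. These were Nodal (log2 ratio -1.09) and Foxh1 (-1.20) in L122A against EGFP, and Lefty1 (-1.03) and Lefty2 (-1.12) in L122A against WT.

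In the LIF culture the Lefty genes were lower in L122A. Lefty1 stood at 0.348 (0.311 to 0.389) and Lefty2 at 0.499 (0.449 to 0.553) of EGFP LIF, the 2 of 9 members past 2-fold in L122A LIF against EGFP LIF, where 3.76% of all genes were past it in that direction (6.93% in either). Lefty2 was also at 0.390 of WT LIF (0.350 to 0.433), the 1 member past 2-fold in L122A LIF against WT LIF (1.27% of all genes lower, 2.57% in either direction). In WT LIF against EGFP LIF none of the 9 was past 2-fold (7.41%), with Lefty1 at 0.552 (0.501 to 0.608) and Tdgf1 at 1.93 (1.90 to 1.95). With library totals alone this Lefty1 ratio crossed 2-fold (log2 ratio -1.20), as did Foxh1 in the same pair (-1.03). The Tdgf1 ratio of this pair fell from log2 0.95 to 0.60 with library totals alone. On the TMM scale Nodal itself was close to EGFP in LIF: 1.12 (1.01 to 1.24) in L122A and 0.981 (0.881 to 1.09) in WT relative to EGFP. The L122A ratio turned round with library totals alone (log2 ratio 0.17 with TMM and -0.02 without). The WT ratio moved farther, to a lower level than in EGFP (log2 ratio -0.03 with TMM and -0.37 without). Lefty1 was thus below EGFP in L122A LIF and above it in L122A RA.

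Whether the response to RA differed between the Nanog transfectants and EGFP was tested on means of 2 classes, with L122A and WT as the libraries of the Nanog class. EGFP has 1 library per culture, so the spread in this test is the difference between L122A and WT, which are different constructs. Its p-values therefore do not measure the spread of replicate cultures. No member passed edgeR's quasi-likelihood test in RA against LIF (0 of 9, against 0.00714% of all genes, with 1554 genes at an unadjusted p below 0.05) or in RA against no-LIF (0 of 9, against 0.0429%, with 1291 genes). The differences were large all the same. In RA against LIF the response of the Nanog transfectants exceeded that of EGFP by 3.50 (SE 1.24) for Nodal, 3.38 (SE 1.002) for Lefty1, 7.30 (SE 2.37) for Lefty2 and 3.36 (SE 1.17) for Foxh1 on the log2 scale, with adjusted p = 0.408, 0.347, 0.388 and 0.383. For Tdgf1 it was 1.11 (SE 0.50, adjusted p = 0.459). In RA against no-LIF the differences were 4.41 (SE 1.25) for Nodal, 2.25 (SE 0.99) for Lefty1, 6.87 (SE 2.40) for Lefty2, 3.62 (SE 1.17) for Foxh1 and 1.74 (SE 0.50) for Tdgf1, with adjusted p between 0.31 and 0.569. The fitted Lefty2 values rest on the single read in EGFP RA.

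These calls depended on the tool, the filter on low counts and WT RA. With no filter, edgeR called 4 of 9 in RA against LIF and 5 in RA against no-LIF, beside 684 and 634 of 25920 genes. DESeq2 called 2 of 9 in RA against LIF, Nodal (3.48, adjusted p = 0.0402) and Lefty1 (3.36, adjusted p = 0.0135), and 1 in RA against no-LIF, Nodal (4.40, adjusted p = 0.00302). Of 13996 genes it called 264 and 251 in the same comparisons. The main fit called 1 and 6, so both settings called more of all genes as well. Leaving out WT RA leaves L122A RA as the only library of the Nanog class in RA. Without WT RA the differences in RA against LIF grew to 4.27 for Nodal, 3.99 for Lefty1 and 4.09 for Foxh1. In RA against no-LIF they grew to 5.18 for Nodal and 4.35 for Foxh1. The member calls gained in that fit came with more calls over all genes as well. Without L122A RA the Nodal differences were 1.92 and 2.83. Over all alternatives the adjusted p of Nodal lay between 1.85e-07 and 0.674 in RA against LIF and between 1.59e-11 and 0.522 in RA against no-LIF. In the response to LIF withdrawal 0 of 9 members differed between the classes (0.0% of all genes, 1117 genes at an unadjusted p below 0.05, and 0 members in DESeq2).

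Between genes, levels can be set side by side in FPKM. Tdgf1 led in every LIF and no-LIF library, between 453 FPKM (L122A no-LIF) and 886 FPKM (WT LIF). In the RA libraries of L122A, WT and EGFP it stood at 6.44, 5.65 and 1.62 FPKM, while Smad2 led at 47.4, 46.3 and 47.6 FPKM. The co-receptor exceeded the ligand 34.0-fold, 49.4-fold and 23.1-fold in the no-LIF libraries of L122A, WT and EGFP and 43.6-fold, 81.0-fold and 41.3-fold in LIF. In RA the ratio was 0.641 in L122A, 2.94 in WT and 3.60 in EGFP, so L122A RA was the library in which Nodal exceeded Tdgf1.

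Among the 9 libraries the order of Nodal in CPM was EGFP no-LIF, then L122A no-LIF, WT no-LIF, L122A LIF, EGFP LIF, WT LIF, and the RA libraries of L122A, WT and EGFP. The neighbours L122A no-LIF and WT no-LIF, WT no-LIF and L122A LIF, and EGFP LIF and WT LIF did not differ beyond counting error. In FPKM the order of the 5 libraries below EGFP no-LIF was another: WT no-LIF (15.0), EGFP LIF (14.2), L122A LIF (14.0), L122A no-LIF (13.3) and WT LIF (10.9). For Tdgf1 the order, the same on both scales, was WT LIF, WT no-LIF, EGFP no-LIF, L122A LIF, EGFP LIF, L122A no-LIF and then the RA libraries of L122A, WT and EGFP. EGFP no-LIF and L122A LIF, EGFP LIF and L122A no-LIF, and L122A RA and WT RA were its indistinct neighbours. In CPM all 8 neighbouring pairs of Lefty1 differed beyond counting error, and of Lefty2 all but WT LIF and L122A no-LIF.

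Genes with a pattern most like that of each member were ranked by Pearson's r over the 9 libraries, on log2 CPM with a prior count of 2, among the 10052 other genes whose mean CPM was 5 or higher. The points share libraries, scaling and the wide gap between RA and the other cultures, so high values are common and are given as a description. Nodal was most like Slc7a7 (r = 0.985), Gng3 (0.980) and Cdca5 (0.979), with Lefty2 in rank 7 (0.972). Tdgf1 was most like Bccip (0.995), Stip1 (0.995) and Eif1 (0.994). Lefty1 was most like Hmgn2 (0.991), Seh1l (0.980) and Fkbp4 (0.976), with Lefty2 in rank 26 (0.958). Lefty2 was most like Cdca5 (0.985), BC055324 (0.984) and Nmral1 (0.982), with Nodal in rank 13. Tdgf1 was farther from the others, in rank 372 for Nodal, 200 for Lefty1 and 278 for Lefty2. For Tdgf1 itself, Lefty1 was in rank 983, Lefty2 in rank 1137 and Nodal in rank 1596.

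Of 24 other genes of the pathway, listed by role, 23 were in the table and 17 passed the filter on low counts. In RA against LIF 7 were higher and 2 lower (median log2 fold change 0.33), against 24.5% and 23.8% of all genes (48.2% in either direction). In RA against no-LIF 5 were higher and 1 lower (median -0.28), against 22.6% and 21.9% (44.5% in either direction). With so many genes called, these counts alone do not set the list apart. Among ligands, Gdf3, a relative of Nodal that also signals through Cripto, was lower in RA against no-LIF (-3.28, SE 0.99, adjusted p = 0.0292, edgeR) and against LIF (-3.89, SE 1.03, adjusted p = 0.0158). Its level was 38.3, 8.33 and 0.499 CPM in the RA libraries of L122A, WT and EGFP, an order shared with Nodal and the Lefty genes, against 73.2 to 158 CPM in the other 6. Its call against LIF was lost without WT RA (-3.96) or WT LIF (-3.86) or with no filter (-3.82), and against no-LIF without WT RA (-3.36), WT LIF (-3.28) or any of the no-LIF libraries of L122A, WT and EGFP (-3.80, -3.36 and -2.94), and with library totals alone (-2.79), no filter (-3.23), no transfectant term (-2.70) or only the 2 cultures fitted (-3.75).

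Inhba, which encodes the activin A subunit and so a ligand of the same receptors, went the other way in RA, by 4.52 (SE 0.57, adjusted p = 0.000913) against no-LIF and 5.72 (SE 0.64, adjusted p = 0.000518) against LIF. It stood at 0.534, 2.07 and 43.4 CPM in the RA libraries of L122A, WT and EGFP, from 19, 66 and 1392 reads. Elsewhere it was at or below 1.68 CPM, with EGFP RA far above the other 8 libraries. In no-LIF and LIF, L122A held 0 and 1 reads and WT held 3 and 0. The fold changes against EGFP below therefore rest on few reads in L122A and WT. Inhba reached the level of the filter only in WT RA, EGFP RA and EGFP no-LIF. Inhba was lower in L122A against EGFP (-6.11, SE 0.67, adjusted p = 0.00699) and in WT against EGFP (-4.28, SE 0.56, adjusted p = 0.0269), the second of which was lost without any 1 of WT RA, WT no-LIF, WT LIF, EGFP RA and EGFP no-LIF (between -4.52 and -4.05). Both were lost with limma on log2(FPKM + 1) (-1.86 and -1.59), and all 4 of these Inhba calls were lost with no second term in the model.

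The type II receptor gene Acvr2a was higher in RA, by 1.43 (SE 0.24, adjusted p = 0.00259, edgeR) against no-LIF and 1.28 (SE 0.24, adjusted p = 0.00342) against LIF. Smad4, the partner of Smad2 and Smad3, was higher by 0.82 (SE 0.20, adjusted p = 0.0118) and 1.10 (SE 0.20, adjusted p = 0.00317), the first lost without WT RA (0.64). The nuclear repressor gene Ski was higher by 1.45 and 1.42 (SE 0.21 for both, adjusted p = 0.00152 and 0.00137) and the inhibitory Smad7 by 1.29 (SE 0.26, adjusted p = 0.00478) against no-LIF. Inhbb was also lower, and Trim33, Skil and Smad7 higher, in RA against LIF, each with a call that leaving out any of several single libraries ended.

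The list of targets held 5 genes of mesoderm and endoderm formation in the embryo, and those that passed the filter on low counts, Eomes and Mixl1, were called in none of the comparisons of culture or transfectant. T, the mesoderm factor also called Brachyury, was read at 106 CPM in EGFP no-LIF, at 6.73 CPM in EGFP LIF and at no more than 0.641 CPM in the other 7 libraries. Mixl1, a homeobox gene of the primitive streak, stood at 0.963, 1.63 and 18.3 CPM in the no-LIF libraries of L122A, WT and EGFP, against 0.316, 1.77 and 1.68 CPM in LIF. Eomes, a T-box factor, stood at 4.51, 3.76 and 16.0 CPM in no-LIF and at 3.16, 2.32 and 2.81 CPM in LIF, in the same order. EGFP no-LIF was thus the highest of the 9 libraries for each of these 3 genes, as it was for Nodal and Foxh1.

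**Figure D4:**
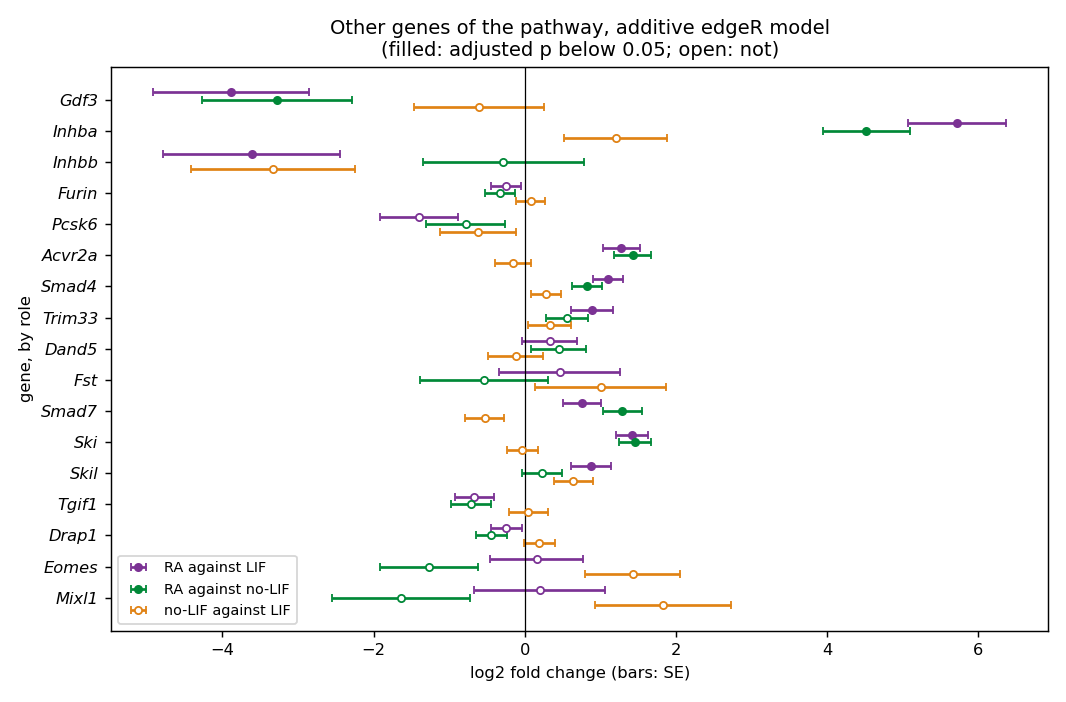
Log2 fold change with SE of 17 other pathway genes, ordered by role, in RA against LIF, RA against no-LIF and no-LIF against LIF, filled where the adjusted p is below 0.05. Inhba at 5.72 and 4.52 and Gdf3 at -3.89 and -3.28 lie farthest out in the RA comparisons, and no point of no-LIF against LIF is filled.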

How the data were processed

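RNA of 9 libraries of transfected RF8 cells was measured by RNA sequencing. The aligner was TopHat2 2.0.11 and the build mm9, per the submitters' processing notes. The sources used here do not give the counting program, read length or use of strand. Per the file headers, the authors deposited a raw count for each gene with no normalization. The deposited FPKM, which the authors scaled per the file headers, matched the count divided by gene length and library total within 1% for every gene above 5 FPKM, so it carries no further scaling. FPKM was used for levels between genes.

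The columns for no-LIF and RA were matched to samples by the sample titles, L122 in a column name was read as L122A, and LIF was given by elimination to the culture name left over. Counts were analysed with edgeR 4.0.16 in R 4.3.3: a filter keeping genes of 1 CPM or more in 3 libraries or more, TMM factors, and a robust quasi-likelihood fit of culture and transfectant as additive factors (biological coefficient of variation 0.325, with 4 degrees of freedom left). Differences of response used class by culture means (0.287, with 3 left), which take L122A and WT as libraries of 1 class. Calls are at a Benjamini-Hochberg adjusted p below 0.05 over 13996 genes, and each SE was obtained by dividing the size of the log2 fold change by the root of its F. The fits were also run on simulated data with 200 changed genes. There every gene had the same spread and no departure from the fitted terms, so that run does not check the p-values given here. Single libraries were compared as ratios of CPM with exact conditional 95% intervals, and called at 2-fold where the higher one reached 5 CPM. Alternatives were leaving out each library, DESeq2 1.42.0, limma 3.58.1 on log2(FPKM + 1), RLE factors, library totals alone, no filter, dropping the second factor, and fitting just the 2 levels compared. Leaving out ribosomal RNA and mitochondrial genes was added after the data had been seen. Ratios and plots were made in Python 3.11.15 (scipy 1.17.1, matplotlib 3.10.9, pandas 2.3.3, numpy 2.4.6).

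The members, lists and tests were chosen with earlier results of these data known. The rule for names took the 9 members, called genes of the pathway lists, Nanog, and for Nodal, Tdgf1, Lefty1 and Lefty2 the 3 genes most like each. The uncalled targets Eomes, Mixl1, T, Gsc and Fgf8 are named outside it, chosen after their values were seen. No motif, list or likeness was tested. Gdf1 of the pathway list did not match the table by name. One further gene of that list is not reported here. Shared 50-base words were counted in GENCODE transcripts of a newer build, for names and sequence alone. Promoter sequences are from RefSeq, GRCm38.p6, matched by symbol, and 5 of 9 members matched.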

Additional observations from a re-analysis of the deposited data

Results flagged for a closer look

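Tdgf1 moved in opposite directions in no-LIF against LIF in the Nanog transfectants and in EGFP. The ratio of CPM was 0.841 in L122A (95% Poisson interval 0.826 to 0.857) and 0.730 in WT (0.720 to 0.740), against 1.20 in EGFP (1.18 to 1.21). The difference between the classes was log2 -0.63 (SE 0.47, adjusted p = 0.807, edgeR's quasi-likelihood test) and did not pass in any alternative (adjusted p between 0.725 and 0.998).

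Acvr2b did so in RA against LIF. The ratio of CPM was 1.45 in L122A (1.03 to 2.06) and 2.11 in WT (1.47 to 3.09), against 0.681 in EGFP (0.480 to 0.961), at no more than 4.17 CPM in any library. The difference between the classes was log2 1.37 (SE 0.99, adjusted p = 0.617, edgeR's quasi-likelihood test, between 0.388 and 0.812 over its alternatives).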

How the results depend on the processing

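The model already compares cultures within transfectants, through its transfectant term, and beyond that no paired analysis was possible because the labels carry no replicate numbers. No fitted log2 fold change given here for a named gene turned round under any alternative run. Of the single-library log2 ratios of members within a culture, 4 turned round with library totals alone, none past 2-fold: Nodal in L122A LIF against EGFP LIF (0.17 to -0.02) and in L122A no-LIF against WT no-LIF (0.04 to -0.17), and Smad2 in L122A LIF against EGFP LIF (0.03 to -0.15) and, near 0 on both scales, in L122A RA against WT RA. Of the 9 members, RA against LIF called 5, but 2 with no filter and between 3 and 6 when a library was left out (3 without WT RA, WT LIF or EGFP LIF). RA against no-LIF called 7, but 3 with no filter, 4 with only the levels compared, and between 3 and 7 when a library was left out (3 without WT RA, 4 without WT no-LIF). No-LIF against LIF called 0, and 1 with only the levels compared, where 90 of all genes were called in place of 10. L122A against EGFP called 0, and 2 with DESeq2. The response differences called 0 in RA against LIF, but 4 with no filter and 2 with DESeq2. In RA against no-LIF they called 0, but 5 with no filter and 1 with DESeq2. Both counts of members also rose when WT RA was left out, in fits that called more of all genes as well. Leaving out a library changed no other count of members (0 to 0), and response differences could not be fitted without an EGFP library they use. The cause of these changes was not tested. Library totals alone moved the median log2 fold change of all genes to 0.39 in RA against LIF and 0.43 in RA against no-LIF, with 4503 higher and 1945 lower, and 4456 higher and 1679 lower, in place of 3423 and 3328, and 3168 and 3067. They moved the medians of the response differences to 0.42 in RA against LIF and 0.27 in RA against no-LIF. The effects of RA on Smad2 and the receptors are of about the size of this shift. Over all genes, no-LIF against LIF 10, WT against EGFP 45, L122A against EGFP 403 and L122A against WT 0 became 278, 614, 1438 and 51 with DESeq2, and 0 in each with no second factor. Leaving out a library moved the first 3 of these to between 0 and 44, 0 and 148, and 24 and 558. The response differences called 1 gene in RA against LIF, 6 in RA against no-LIF and 0 in no-LIF against LIF, but 684, 634 and 403 with no filter and 264, 251 and 120 with DESeq2. Without WT RA, 4232 genes were called in RA against LIF and 3615 in RA against no-LIF, in place of 6751 and 6235, and without WT LIF 4488 in RA against LIF.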

Other observations

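The proportion of inhibitor to ligand differed between libraries. In deposited FPKM, the ratio of Lefty1 to Nodal was 0.466, 0.802 and 1.31 in the RA libraries of L122A, WT and EGFP, against 2.18, 3.95 and 1.73 in no-LIF and 0.671, 1.22 and 2.16 in LIF. The ratio of Lefty2 to Nodal was 0.408, 0.349 and 0.0222 in RA, against 1.36, 2.62 and 0.924 in no-LIF and 0.569, 1.67 and 1.28 in LIF, in the same order. Lefty1 exceeded Nodal in all no-LIF libraries, in EGFP RA, in WT LIF and in EGFP LIF, and lay below it in L122A RA, WT RA and L122A LIF. L122A had the lowest ratio of Lefty1 to Nodal in RA and in LIF. These are single libraries, given with no test.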
